A study of Rattus norvegicus with 8 samples.

Results

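The response of Control SF2 cells to the condition labelled TGF was read from 2 TGF libraries set against 2 N libraries, which are 4 of the 8 libraries of the study. SF2 is an epithelial cell line that the labels trace to the cervical loop of the rat lower incisor, the niche at the growing end of the tooth that renews the enamel-forming epithelium. The groups were Control cells labelled TGF, Control cells labelled N, cells labelled as overexpressing AmeloD with TGF and the same cells with N, and each held 1 library with the plasmid label pCMV6 and 1 with pCMV6.ODAM. AmeloD, the product of Ascl5, is a transcription factor of dental epithelial cells, and Odam encodes a secreted protein of the enamel organ. Ascl5 had 0 reads in all 8 libraries, the AmeloD ones included, so its reads do not show the overexpression that the label states. They cannot test it either: 3' ends were sequenced, and the Ascl5 entry is only 567 bases long. Whether transcripts of an introduced construct would be counted there is not known here. AmeloD is therefore used as the name of the label. The sources used here spell out neither N nor TGF, state no dose, duration or ligand isoform, and do not say whether Control cells carried a vector or were 1 clone. Each combination was sequenced once, and nothing says that the libraries came from separate cultures, so the p-values measure only the spread between these libraries, which may be technical. Each TGF library was paired with the N library of the same plasmid label. In the fit, each gene's own spread is the gap between the TGF minus N differences of the 2 plasmid labels within each genotype. It would therefore also hold any effect of the plasmid on the response. The p-values rest mostly on the spread of genes at a like expression level. That spread had 15.7 prior degrees of freedom, against 2 for the gene's own. Of 30240 genes in the table, 6878 reached 1 CPM, the read count scaled to the library total, in at least 2 of the 4 Control libraries and were tested. Of these, 119 were kept through the TGF libraries alone and 92 through the N libraries alone, so such genes could enter only by being high there.

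The Control libraries totalled 14766931 to 17775226 reads, of which 2309450 to 2854134 lay in the gene table, 15.6% to 17.5% of each total. Their log2 values correlated at 0.974 to 0.980. Epithelial markers were well read: the basal keratin gene Krt5 was at 177 and 189 CPM in the pCMV6 and pCMV6.ODAM TGF libraries and at 247 and 213 CPM in the matching N libraries, and Krt17, a keratin of progenitor and wounded epithelium, was at 308 and 333 CPM with TGF and at 382 and 300.5 CPM with N. The epithelial adhesion gene Epcam was at 10.2 and 9.29 CPM with TGF and at 8.57 and 7.38 CPM with N. Markers of other cells were nearly absent, with 1 tested gene in each list (Cd68, Egfl7 and Spp1), none of which passed limma or edgeR: the summed level of the leukocyte list was 1.74 and 1.75 CPM with TGF against 1.0014 and 1.63 CPM with N, that of the endothelial list 1.24 and 2.01 against 1.69 and 1.56 CPM, and that of the odontoblast, bone and dental mesenchyme list 1.46 and 1.62 against 1.31 and 1.83 CPM. Of these lists, 7 of 13 leukocyte, 4 of 10 endothelial and 7 of 12 odontoblast, bone and dental mesenchyme genes had 0 reads in the 4 Control libraries. In bulk RNA, fewer cells of a type and less RNA per cell cannot be told apart.

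Transforming growth factor beta is a secreted ligand that binds a pair of serine/threonine kinase receptors. The activated receptor phosphorylates SMAD2 and SMAD3, which enter the nucleus with SMAD4 and bind DNA at CAGA-containing sites, usually beside other factors such as AP-1. In epithelial cells the pathway is known for matrix and basement membrane synthesis, actin remodelling, growth arrest and, under some conditions, epithelial-mesenchymal transition, and it induces its own inhibitors.

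The 250 bases upstream of the annotated start are printed for 4 genes: Ccn2 and Pmepa1, which had the largest rises, Prl8a7, whose AmeloD values were unlike those of Control, and Lama3, whose promoter had the most motif matches. They are from RefSeq (GRCr8), which is not the build of the deposited table (mRatBN7.2). Ccn2 lies on the minus strand at chr1:22624615-22624864, Pmepa1 on the minus strand at chr3:182478650-182478899, Prl8a7 on the plus strand at chr17:37766960-37767209 and Lama3 on the plus strand at chr18:3952517-3952766. Each is written 5′ to 3′, ending at the base before the start, and capitals mark matches on either strand to CAGAC (which holds the CAGA core bound by SMAD3 and SMAD4), TGANTCA (the AP-1 motif) or GGAATG (the TEAD motif).
Ccn2: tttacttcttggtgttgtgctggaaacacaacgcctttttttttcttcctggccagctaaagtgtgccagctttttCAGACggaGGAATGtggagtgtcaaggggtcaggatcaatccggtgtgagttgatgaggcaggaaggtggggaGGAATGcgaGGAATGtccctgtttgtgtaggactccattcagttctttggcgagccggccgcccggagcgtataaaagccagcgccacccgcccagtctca
Pmepa1: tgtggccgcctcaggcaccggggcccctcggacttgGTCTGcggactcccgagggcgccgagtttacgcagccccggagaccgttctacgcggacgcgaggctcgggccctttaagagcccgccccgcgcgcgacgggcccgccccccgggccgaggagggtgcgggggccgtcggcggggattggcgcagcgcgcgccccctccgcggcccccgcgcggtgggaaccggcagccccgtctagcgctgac
Prl8a7: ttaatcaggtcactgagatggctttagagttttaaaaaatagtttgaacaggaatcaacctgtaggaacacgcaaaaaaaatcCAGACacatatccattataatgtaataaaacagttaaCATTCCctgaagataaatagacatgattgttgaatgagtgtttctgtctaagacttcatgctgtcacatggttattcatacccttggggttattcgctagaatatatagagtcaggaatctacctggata
Lama3: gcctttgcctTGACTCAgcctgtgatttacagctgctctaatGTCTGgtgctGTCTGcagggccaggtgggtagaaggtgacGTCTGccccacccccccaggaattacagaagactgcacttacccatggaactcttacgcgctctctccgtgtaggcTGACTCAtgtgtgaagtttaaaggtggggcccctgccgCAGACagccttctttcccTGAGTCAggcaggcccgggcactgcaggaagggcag
The Ccn2 promoter held 3 GGAATG matches and 1 CAGAC match, at 92, 101, 166 and 174 bases before the start. At least 3 GGAATG matches were found in 0.0807% of the 33469 promoters of this length. Lama3 held 3 TGANTCA and 4 CAGAC matches, numbers reached by 0.0149% and 0.586% of promoters. It was picked for its number of matches, so these shares are no test of enrichment. Pmepa1 held 1 CAGAC match, and Prl8a7 held 1 CAGAC and 1 GGAATG match. Of the 21 genes that passed the test, 14 had a RefSeq promoter. CAGAC occurred in 8 of these 14, against 42.9% of all promoters, GGAATG in 4 against 12.1%, and TGANTCA in 2 against 6.34%. The palindrome GTCTAGAC occurred in 0 against 0.173%, the E-box CACGTG in 1 against 5.59%, and GGCGC, a GC-rich SMAD motif, in 5 against 29.8%. Both strands were searched for each motif. Among the motifs marked in capitals, no match overlapped one of another motif, and overlap with the other motifs was not checked. A match is a description of the letters and not a binding site.

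The comparison of TGF with N addressed which genes the TGF condition changed in Control cells. Of the 6878 genes tested, 21 passed, which is 0.305%: 20 were higher (0.291%) and 1 was lower (0.0145%) with TGF. The test was limma on log2(CPM + 1) with Benjamini-Hochberg adjustment over all genes tested and a threshold of 0.05, and changes are given as log2 ± SE on that scale, which understates the change of low genes. The largest rises were those of Pmepa1, which restrains SMAD signalling (2.99), Ccn2, a matricellular protein (2.61), Prl8a7, a prolactin family gene (2.09), and Igfbp5, a binding protein of insulin-like growth factors (2.04). In 13 of the 20 the rise exceeded 1 log2 unit. An unadjusted p under 0.05 was reached by 393 genes, or 5.71%. DESeq2, run beside edgeR as an alternative, gave an adjusted p to 3944 of the 6878 genes. The count rests on all 4 Control libraries: with either pCMV6 library left out only Ccn2 and Pmepa1 were called, and with either pCMV6.ODAM library left out only Ccn2, while leaving out an AmeloD library gave 55 to 60 calls. In the fits without an AmeloD library, limma set the spread of each gene from its expression level alone. The main fit drew mostly on that level too, with 15.7 prior degrees of freedom against 2 of the gene's own. The 2 TGF libraries lay above both N libraries for all 20 rises and below both for Fam25a, but over all genes tested 21.3% lay wholly above and 14% wholly below.

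**Figure D1:**
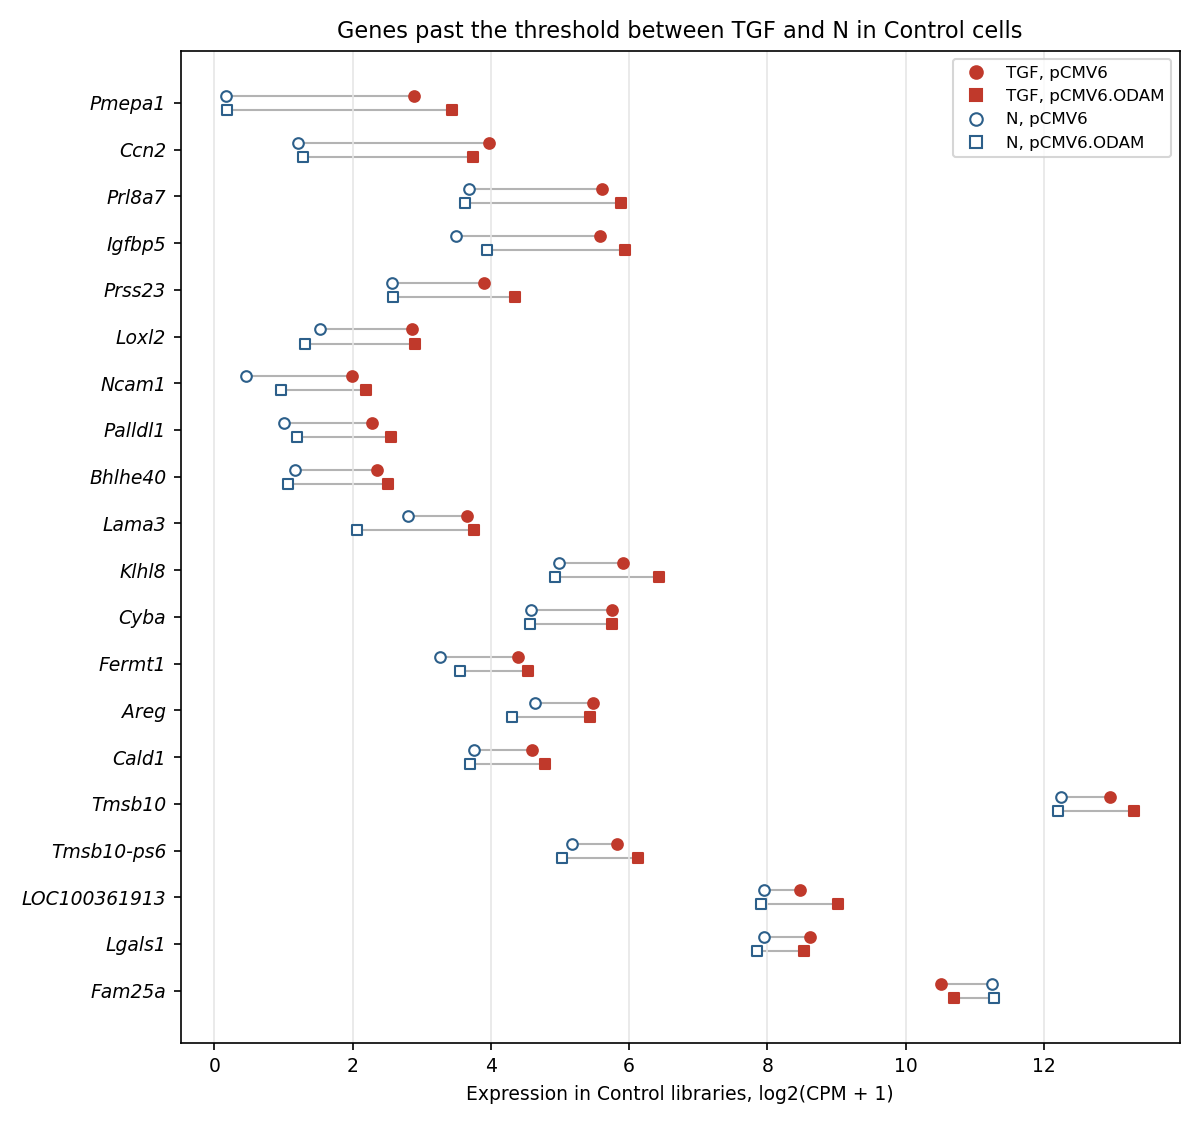
Expression of 20 of the 21 genes past the threshold in the 4 Control libraries, as log2(CPM + 1). Filled red marks are TGF libraries and open blue marks N libraries, circles are pCMV6 and squares pCMV6.ODAM, and lines join the libraries of a pair. Pmepa1 and Ccn2 have the longest lines, Tmsb10 is the most abundant gene, and Fam25a is the 1 gene whose TGF marks lie left of its N marks.

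Pmepa1, a transmembrane protein that sequesters receptor-activated SMADs and so restrains the pathway, had 6.41 and 9.81 CPM in the pCMV6 and pCMV6.ODAM TGF libraries and 0.125 and 0.135 CPM in the matching N libraries. That is 265 reads with TGF and 4 reads with N. The gene (ENSRNOG00000050404, chromosome 3, 162012751 to 162060454 in mRatBN7.2) rose by 2.99 ± 0.27 (limma adjusted p = 7.27e-06). It was kept for testing through its TGF libraries alone, so it could enter only by being high there.

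Ccn2, a matricellular protein long used as a marker of TGF-beta activity (ENSRNOG00000015036, chromosome 1, 20802199 to 20805734), had 14.7 and 12.3 CPM with TGF against 1.31 and 1.42 CPM with N. The 451 TGF reads and 42 N reads separate the groups widely, and the gene rose by 2.61 ± 0.21 (limma adjusted p = 2.95e-06). Bhlhe40, a basic helix-loop-helix repressor inducible by TGF-beta in several cell types, was lower in level, at 4.11 and 4.68 CPM with TGF and 1.25 and 1.08 CPM with N, and rose by 1.31 ± 0.27 (limma adjusted p = 0.0497). It lay just inside the threshold. Among the alternatives other than leaving out 1 library, its call held in 6 and was lost in 4, DESeq2 (adjusted p = 0.134) among them. Of 21 tested members of the list of direct TGF-beta targets, 2 rose, 0 fell and 19 were not called. Rises were 0.291% of all genes tested. The median change of the list was 0.25, beside 0.04 over all genes tested. Of its 21 members, 5 had an unadjusted p under 0.05, all above 0, beside 5.71% of all genes tested. Tpm1, a tropomyosin, had 73.0 and 63.9 CPM with TGF and 39.2 and 36.8 CPM with N, and at 0.83 ± 0.19 it did not pass (limma adjusted p = 0.0827), while edgeR (adjusted p = 0.0365) and DESeq2 (adjusted p = 0.0398) called it.

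The inhibitory SMAD gene Smad7 was too sparsely read to test. It had 8 and 9 reads in the pCMV6 and pCMV6.ODAM TGF libraries and 1 and 1 in the matching N libraries. Cdkn1a, a cyclin-dependent kinase inhibitor often induced by TGF-beta in epithelium, was at 31.6 and 29.8 CPM with TGF and 39.7 and 33.3 CPM with N (-0.24 ± 0.18, limma adjusted p = 0.964).

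No tested ligand, activator, receptor or SMAD gene passed limma. The list of ligands and activators had 8 tested members, 2 of them (Thbs1 and Itgb6) kept through the TGF libraries alone and 1 (Ltbp4) through the N libraries alone, with 0 rises and 0 falls and a median of 0.60. Of these, 5 had an unadjusted p under 0.05, all above 0, beside 5.71% of all genes tested. edgeR called 0, and DESeq2 called 1, Fst, of the 4 to which it gave an adjusted p. Fst, encoding follistatin, which binds activins, was at 109 and 112 CPM with TGF and 77.3 and 58.6 CPM with N (0.71 ± 0.16, limma adjusted p = 0.0891). Thbs1, encoding thrombospondin-1, an activator of latent TGF-beta, had 33 and 33 reads with TGF and 2 and 8 with N, entered the test through its TGF libraries, and was not called (1.19 ± 0.28, limma adjusted p = 0.113). Inhba, the activin A subunit, had 45.3 and 38.2 CPM with TGF and 35.3 and 28.3 CPM with N (0.39 ± 0.21, limma adjusted p = 0.929). The ligand gene Tgfb1 had 5 and 7 reads with TGF and 1 and 1 with N, below the level tested.

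Of 20 receptor and SMAD genes in the table, 5 were tested and none passed limma or edgeR, nor DESeq2, which gave 3 of them no adjusted p. Their median was 0.22, and 1 had an unadjusted p under 0.05, above 0. Tgfbr2, the type II receptor, had 8.66 and 8.25 CPM with TGF and 8.01 and 6.43 CPM with N (0.21 ± 0.21, limma adjusted p = 0.988). Bmpr2, the type II receptor for bone morphogenetic proteins, had 5.40 and 6.37 CPM with TGF and 5.63 and 4.27 CPM with N (0.22 ± 0.24, limma adjusted p = 0.988). The type I receptor gene Tgfbr1 had 4 and 14 reads with TGF and 3 and 8 with N, and Smad3 had 5 and 0 reads with TGF and 1 and 13 with N, so neither could be tested. In the list of feedback inhibitors Pmepa1 was the 1 rise among 9 tested genes, with 0 falls and a median of 0.30. Of these 9 genes, 2 had an unadjusted p under 0.05, both above 0. Of 4 tested Id and BMP target genes none passed limma, edgeR or DESeq2 (2 without an adjusted p), 1 had an unadjusted p under 0.05, and the median was -0.12. That gene, Id3, an inhibitor of basic helix-loop-helix factors, was at 2.48 and 2.86 CPM with TGF and 5.13 and 4.61 CPM with N (-0.68 ± 0.25, limma adjusted p = 0.689). Id1 was at 2.42 and 2.47 CPM with TGF and 4.63 and 3.12 CPM with N (-0.48 ± 0.26, limma adjusted p = 0.929).

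Laminins, cross-shaped trimers of the basement membrane, anchor epithelial cells to the matrix below them, and Lama3 and Lamb3 encode chains of epithelial laminin. Lama3 (ENSRNOG00000011300, chromosome 18, 3523133 to 3751353) had 11.6 and 12.5 CPM with TGF and 5.95 and 3.18 CPM with N, and rose by 1.28 ± 0.24 (limma adjusted p = 0.0223). The N libraries of Lama3 differed more from each other than its TGF libraries did. Lamb3 had 51.4 and 44.5 CPM with TGF and 32.4 and 24.1 CPM with N, and at 0.76 ± 0.17 it fell short of the threshold (limma adjusted p = 0.0891), while edgeR called it (adjusted p = 0.0374) and so did DESeq2 (adjusted p = 0.04996). The list of basement membrane and integrin genes had 21 tested members: 2 rises, 0 falls and 19 that did not pass, and a median of 0.25. Rises were 0.291% of all genes tested. Of the 21 members, 5 had an unadjusted p under 0.05, all above 0, beside 5.71% of all genes tested.

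Among genes of the interstitial matrix, Loxl2, a lysyl oxidase that crosslinks collagen, had 6.24 and 6.50 CPM with TGF and 1.88 and 1.49 CPM with N. It (ENSRNOG00000016758, chromosome 15, 44683880 to 44773067) rose by 1.46 ± 0.25 (limma adjusted p = 0.0117) on 211 reads with TGF and 52 with N. It was the 1 rise among 13 tested members, with 0 falls and a median of 0.42, beside rises in 0.291% of all genes tested. Of the 13 members, 5 had an unadjusted p under 0.05, all above 0, beside 5.71% of all genes tested. Fibronectin, Fn1, was at 53.1 and 64.4 CPM with TGF and 35.5 and 30.3 CPM with N, a change of 0.81 ± 0.18 that limma did not call (adjusted p = 0.0713) and that edgeR (adjusted p = 0.0198) and DESeq2 (adjusted p = 0.0210) did. Sparc and the fibrillar collagen gene Col3a1, named after their values were seen, had higher CPM with TGF in each pair and did not pass: Sparc was at 28.4 and 39.0 CPM with TGF and 22.8 and 18.6 CPM with N, and Col3a1 at 48.8 and 63.0 CPM with TGF and 38.3 and 33.2 CPM with N.

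Igfbp5, which binds insulin-like growth factors (ENSRNOG00000017206, chromosome 9, 74448382 to 74465156), had 46.6 and 60.5 CPM with TGF and 10.3 and 14.4 CPM with N, and rose by 2.04 ± 0.22 (limma adjusted p = 5.67e-05). It was the 1 rise among 13 tested dental epithelial progenitor and signalling genes (0 falls, median 0.16). An unadjusted p under 0.05 was reached by 2 of them above 0 and 1 below. Prss23, a secreted serine protease, had 14.01 and 19.3 CPM with TGF and 4.94 and 5.01 CPM with N, and rose by 1.55 ± 0.22 (limma adjusted p = 0.00175). Areg, encoding the epidermal growth factor receptor ligand amphiregulin, had 43.8 and 42.2 CPM with TGF and 23.8 and 18.8 CPM with N, and rose by 0.99 ± 0.18 (limma adjusted p = 0.0194). Areg was the 1 rise among 16 tested AP-1, ERK and growth factor response genes (0 falls, median 0.20). It was also the 1 gene of that list with an unadjusted p under 0.05. The related ligand gene Hbegf, named after its values were seen, was at 34.6 and 24.9 CPM with TGF and 27.9 and 17.0 CPM with N and did not pass (0.41 ± 0.21, limma adjusted p = 0.882).

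Prl8a7, a prolactin family gene known from the rodent placenta (ENSRNOG00000016933, chromosome 17, 37558883 to 37564718), had 47.7 and 58.2 CPM with TGF and 11.8 and 11.3 CPM with N. These values rest on 1742 reads with TGF and 356 with N, and the gene rose by 2.09 ± 0.24 (limma adjusted p = 1.61e-04). The prolactin family has many close relatives, and the sources do not state how reads shared between them were assigned.

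Tmsb10, encoding the actin-monomer-binding thymosin beta 10 (ENSRNOG00000064090, chromosome 4, 105009212 to 105011028), had 7967 and 10146 CPM with TGF and 4858 and 4717 CPM with N, and rose by 0.91 ± 0.11 (limma adjusted p = 3.29e-04). This 1 gene took 4.96% and 5.80% of the table's reads in the TGF libraries and 3.03% and 3.02% in the N libraries. With TMM scaling its change was 0.85 and was not called (adjusted p = 0.226). Tmsb10-ps6, named as a pseudogene of it, had 55.6 and 69.1 CPM with TGF and 34.9 and 31.6 CPM with N and rose by 0.88 ± 0.18 (limma adjusted p = 0.0353); reads of Tmsb10 may be counted there.

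Cald1, encoding caldesmon, which stabilises actin filaments, had 23.2 and 26.6 CPM with TGF and 12.5 and 11.99 CPM with N, and rose by 0.97 ± 0.19 (limma adjusted p = 0.0386). It was the 1 rise among 35 tested actin cytoskeleton and focal adhesion genes (0 falls, median 0.21), beside rises in 0.291% of all genes tested. Of these 35 genes, 9 had an unadjusted p under 0.05, all above 0, beside 5.71% of all genes tested. Fermt1, encoding kindlin-1, an integrin activator of epithelial cells, had 19.97 and 22.3 CPM with TGF and 8.64 and 10.7 CPM with N, and rose by 1.06 ± 0.20 (limma adjusted p = 0.0223). Lgals1, encoding the beta-galactoside-binding lectin galectin-1, had 392.7 and 369 CPM with TGF and 247 and 229.6 CPM with N, and rose by 0.67 ± 0.14 (limma adjusted p = 0.0497). It lay just inside the threshold. Its call was lost in 7 of the 11 alternatives other than leaving out 1 library. These included edgeR (adjusted p = 0.108) and DESeq2 (adjusted p = 0.0531). Palldl1, which the deposited ontology column ties to actin cytoskeleton organization, had 3.88 and 4.87 CPM with TGF and 1.0014 and 1.29 CPM with N, and rose by 1.32 ± 0.24 (limma adjusted p = 0.0213).

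Ncam1, a neural cell adhesion molecule expressed in many mesenchymal cells, had 2.98 and 3.57 CPM with TGF and 0.376 and 0.948 CPM with N. It rose by 1.38 ± 0.26 (limma adjusted p = 0.0229) on 108 reads with TGF and 20 with N, and was kept through the TGF libraries alone. It was the 1 rise among 7 tested mesenchymal and EMT genes (0 falls, median 0.37). Of these 7 genes, 2 had an unadjusted p under 0.05, both above 0. Vim, the mesenchymal intermediate filament vimentin, stayed near the lowest level tested, at 0.9001 and 1.75 CPM with TGF and 0.438 and 1.02 CPM with N (0.43 ± 0.26, limma adjusted p = 0.952). The transcription factor gene Snai2, named after its values were seen, was at 6.08 and 8.58 CPM with TGF and 6.26 and 4.60 CPM with N (0.37 ± 0.24, limma adjusted p = 0.964).

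Of 29 tested epithelial junction and keratin genes none passed limma, edgeR or DESeq2, which gave 9 of them no adjusted p, and 4 had an unadjusted p under 0.05, 2 above 0 and 2 below, beside 5.71% of all genes tested. The median of this list was 0.02. Cdh1, encoding E-cadherin, was at 3.99 and 5.33 CPM with TGF and 3.25 and 3.32 CPM with N (0.39 ± 0.23, limma adjusted p = 0.936). The suprabasal keratin gene Krt16 was at 274 and 343 CPM with TGF and 405 and 356 CPM with N (-0.31 ± 0.14, limma adjusted p = 0.866). Of 20 tested cornified envelope genes none passed limma, edgeR or DESeq2 (5 without an adjusted p), 3 had an unadjusted p under 0.05 (2 above 0 and 1 below), and the median was 0.04. Cnfn, encoding cornifelin, had 58.1 and 111 CPM with TGF and 59.6 and 63.5 CPM with N, so the pairs differed in sign (0.38 ± 0.17, limma adjusted p = 0.866). Lce3e, a late cornified envelope gene, had 72.5 and 77.9 CPM with TGF and 74.7 and 75.2 CPM with N. Of 7 tested enamel matrix and ameloblast genes none passed limma, 2 had an unadjusted p under 0.05, both above 0, edgeR and DESeq2 each called 1, Lamb3, and the median was 0.00. Fam83h, a gene of enamel calcification, had 5.40 and 6.95 CPM with TGF and 8.70 and 5.28 CPM with N (-0.13 ± 0.26, limma adjusted p = 0.997). Odam had 0 and 17 reads in the pCMV6 and pCMV6.ODAM TGF libraries and 1 and 10 in the N libraries, which follows the plasmid labels.

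Other rises lay outside the lists. Klhl8, a substrate adaptor of a cullin-3 ubiquitin ligase, had 59.4 and 85.6 CPM with TGF and 30.7 and 29.3 CPM with N, and rose by 1.22 ± 0.18 (limma adjusted p = 0.00225). Cyba, encoding p22phox, the membrane subunit shared by several NADPH oxidases, had 52.9 and 52.7 CPM with TGF and 22.9 and 22.8 CPM with N, and rose by 1.17 ± 0.17 (limma adjusted p = 0.00225). Within each of its groups the 2 libraries of Cyba were almost equal. LOC100361913, which the deposited annotation places in transport from the endoplasmic reticulum to the Golgi, had 354.5 and 517 CPM with TGF and 247 and 239 CPM with N, and rose by 0.81 ± 0.14 (limma adjusted p = 0.0163).

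Fam25a was the 1 fall. It is a small gene (ENSRNOG00000055025, chromosome 16, 9680668 to 9684474) without an entry in the deposited ontology column. It had 1459 and 1667 CPM with TGF and 2445 and 2490 CPM with N, and fell by 0.66 ± 0.12 (limma adjusted p = 0.0223). With TMM scaling its change was -0.72 and was not called (adjusted p = 0.226).

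On whole reads recovered from the CPM, edgeR's quasi-likelihood test called 34 genes higher (0.494%) and 8 lower (0.116%), so 81.0% of its calls were rises, against 95.2% in the limma fit. The share of rises was also lower with TMM scaling before limma (28 higher and 7 lower, 80.0% rises) and with libraries set to the same median (30 higher and 9 lower, 76.9%), while DESeq2, on the same reads as edgeR, called 22 higher and 1 lower. The other falls that edgeR called, named here after their values were seen, were Slu7, Acly, Gng8, Anln, Gnl3, Cpa4 and an unnamed long noncoding RNA gene. Acly, the ATP-citrate lyase that supplies acetyl-CoA for lipid synthesis, had 1.29 and 1.17 CPM with TGF and 3.82 and 3.32 CPM with N (edgeR log2 change -1.59, adjusted p = 0.0198). Anln, encoding anillin of the cytokinetic ring, had 13.7 and 16.8 CPM with TGF and 32.4 and 22.5 CPM with N (edgeR log2 change -0.90, adjusted p = 0.0169). Among the added rises were Igfbp7, an insulin-like growth factor binding protein relative, and Phldb2, a cell cortex protein. Igfbp7 had 10.2 and 16.1 CPM with TGF and 7.198 and 6.37 CPM with N (edgeR adjusted p = 0.0463). Phldb2 had 13.9 and 17.3 CPM with TGF and 8.82 and 7.92 CPM with N (edgeR adjusted p = 0.0374). DESeq2 called neither Igfbp7 (adjusted p = 0.497) nor Phldb2 (adjusted p = 0.315). It did not call Anln (adjusted p = 0.143) and gave Acly no adjusted p.

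Proliferation and metabolic lists held no limma call, and their counts of an unadjusted p under 0.05 stand beside 5.71% of all genes tested. DESeq2 gave no adjusted p to 4 of the G1 and cytostasis, 20 of the DNA replication, 8 of the mitosis and 5 of the glycolysis and hypoxia genes. Of 14 tested G1 and cytostasis genes 1 had an unadjusted p under 0.05, below 0, with no edgeR or DESeq2 call, and the median was -0.04. The cyclin D1 gene Ccnd1 was at 15.0 and 22.8 CPM with TGF and 28.4 and 24.7 CPM with N (-0.49 ± 0.20, limma adjusted p = 0.769). Of 29 DNA replication genes 2 had an unadjusted p under 0.05, both below 0, with no edgeR or DESeq2 call and a median of -0.11. The chromatin remodeller gene Hells was at 60.5 and 61.9 CPM with TGF and 65.9 and 73.0 CPM with N, and the clamp loader gene Rfc1 at 8.33 and 7.80 CPM with TGF and 8.39 and 8.87 CPM with N. Of 24 mitosis genes 3 had one, all below 0, edgeR called 1, Anln, which DESeq2 did not (adjusted p = 0.143), and the median was -0.23. The mitotic cyclin gene Ccnb1 was at 21.0 and 21.3 CPM with TGF and 27.1 and 29.8 CPM with N (-0.41 ± 0.19, limma adjusted p = 0.866), and the chromatin protein gene Hmgb2 at 92.2 and 79.1 CPM with TGF and 78.5 and 97.0 CPM with N. Of 20 glycolysis and hypoxia genes 4 had an unadjusted p under 0.05, all below 0, with no edgeR or DESeq2 call and a median of -0.22. The lactate dehydrogenase gene Ldha had 154 and 148 CPM with TGF and 192 and 182 CPM with N (-0.31 ± 0.15, limma adjusted p = 0.881), and the enolase gene Eno1 at 75.9 and 76.7 CPM with TGF and 78.4 and 68.1 CPM with N. The glycolytic gene Pgk1, named after its values were seen, was at 61.2 and 60.4 CPM with TGF and 90.3 and 84.9 CPM with N (-0.52 ± 0.16, limma adjusted p = 0.403), and its TGF libraries lay below both N libraries, as did those of 14% of all genes tested.

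Cholesterol synthesis, endoplasmic reticulum stress and interferon response genes held no call by limma or edgeR. DESeq2 made none either, but gave no adjusted p to 7 cholesterol synthesis, 4 endoplasmic reticulum stress and 4 interferon response genes. Of 13 cholesterol synthesis genes 3 had an unadjusted p under 0.05 (2 above 0 and 1 below), and the median was 0.22. Cyp51, encoding lanosterol demethylase, was at 9.23 and 9.68 CPM with TGF and 8.01 and 7.92 CPM with N, and the farnesyl diphosphate synthase gene Fdps at 12.5 and 13.0 CPM with TGF and 10.9 and 12.1 CPM with N. Of 22 endoplasmic reticulum stress genes 1 had an unadjusted p under 0.05, above 0, and the median was 0.02. The chaperone gene Canx was at 49.6 and 63.1 CPM with TGF and 45.0 and 44.0 CPM with N, and Hspa5 at 56.9 and 64.1 CPM with TGF and 58.7 and 56.2 CPM with N. Of 7 interferon response genes 0 had an unadjusted p under 0.05, and the median was -0.16. Ifi27 was at 14.5 and 19.7 CPM with TGF and 12.4 and 15.9 CPM with N, and Ifitm3 at 55.4 and 36.0 CPM with TGF and 51.6 and 49.3 CPM with N.

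**Figure D2:**
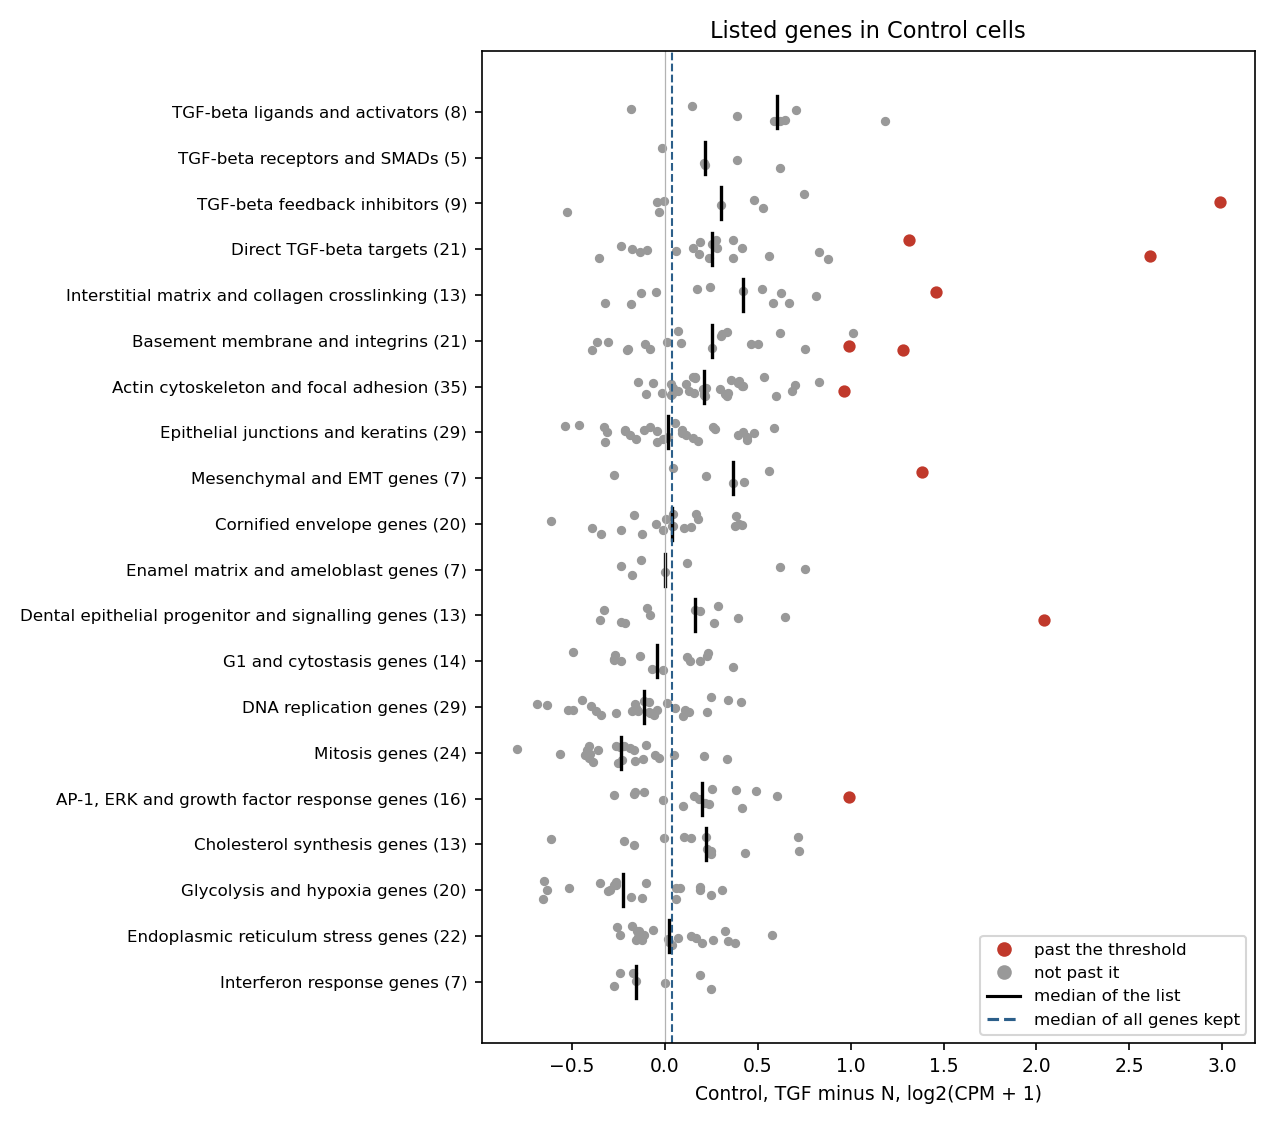
Change of each tested member of the 20 gene lists with at least 5 tested members in Control cells, TGF minus N on the log2(CPM + 1) scale. Each row is a list with its number of tested members, red points passed the threshold, black bars are list medians and the dashed line is the median of all genes tested. The red points all lie right of 0, and the list medians run from -0.23 for mitosis to 0.60 for TGF-beta ligands and activators.

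The 2 Control pairs were then compared with each other. Genes were called for agreeing between the pairs, so their likeness is a description. Over all genes tested, the pair differences correlated at Pearson r 0.149 and Spearman rho 0.113 across genes, which are not independent replicates, and the pairs share no library. The median difference was -0.06 in the pCMV6 pair and 0.15 in the pCMV6.ODAM pair. Of the 21 called genes, 16 changed more in the pCMV6.ODAM pair, and the share over all genes tested was not counted. The gene table held 17.5% of the reads of the pCMV6.ODAM TGF library and 15.6% of those of its N library. In the pCMV6 pair it held 16.1% in each library. How far these shares bear on the count was not tested. Pmepa1 differed by 2.72 in the pCMV6 pair and 3.25 in the pCMV6.ODAM pair, Ccn2 by 2.76 and 2.46, Prl8a7 by 1.92 and 2.27, Igfbp5 by 2.08 and 1.99, and Fam25a by -0.74 and -0.58. The widest gap between the pairs among called genes was 0.83, for Lama3, with 0.86 in the pCMV6 pair and 1.69 in the pCMV6.ODAM pair.

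**Figure D3:**
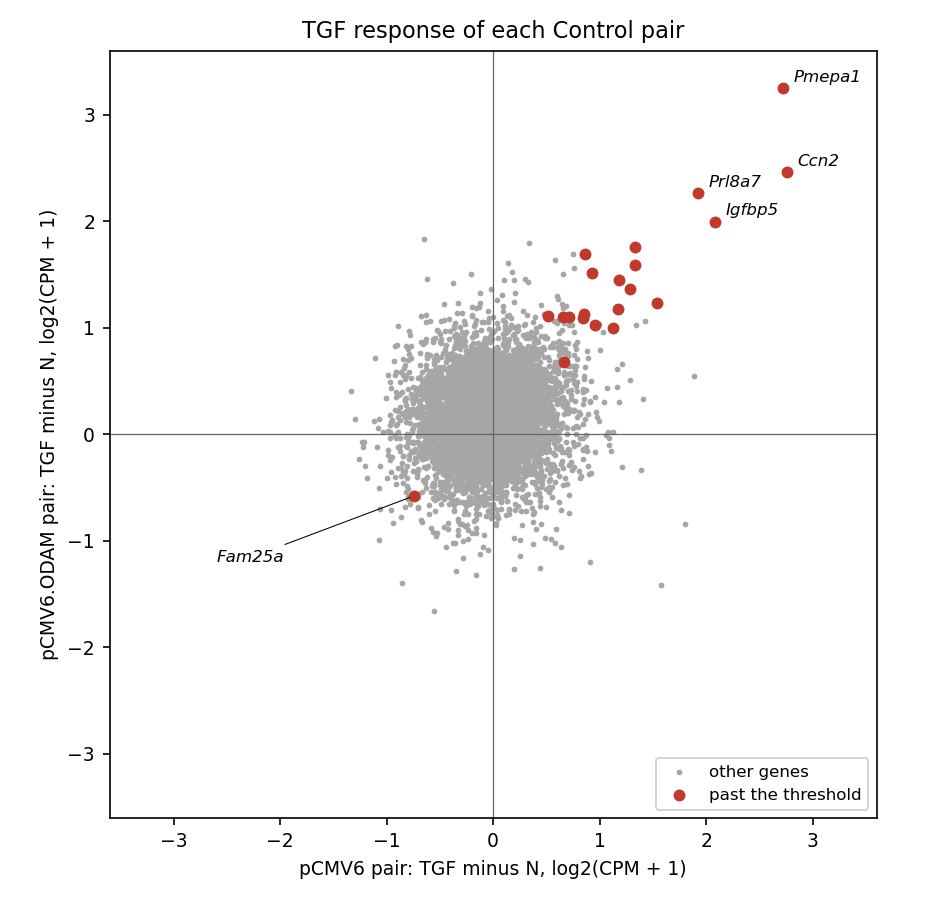
TGF minus N difference of every tested gene in the pCMV6 pair (x axis) and the pCMV6.ODAM pair (y axis), both on the log2(CPM + 1) scale. Red points are the 21 genes past the threshold. Most genes form a round cloud about 0, and Pmepa1, Ccn2, Igfbp5 and Prl8a7 lie beyond it at the upper right.

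The response was then set against that of the cells labelled AmeloD, whose libraries are separate from the Control ones but share the estimate of spread in the fit. All 21 genes called in Control cells had the same sign in AmeloD cells, where the sign of Prl8a7 rests on 3 reads. The share of same signs over all genes tested was not counted. Of the 21 genes, 17 passed in AmeloD cells too. These 17 are 81.0% of the Control calls and 43.6% of the 39 AmeloD calls, which were 0.567% of genes (33 higher, 0.48%, and 6 lower, 0.0872%). Over all genes tested the Control and AmeloD changes correlated at Pearson r 0.304 and Spearman rho 0.221 across genes. Pmepa1 changed by 2.99 ± 0.27 in Control and 3.03 ± 0.27 in AmeloD cells, and Ccn2 by 2.61 ± 0.21 and 2.63 ± 0.21. The levels of Ccn2 were lower in Control libraries: it had 14.7 and 12.3 CPM with TGF and 1.31 and 1.42 CPM with N in Control cells, and 48.8 and 35.1 CPM with TGF and 7.66 and 4.45 CPM with N in AmeloD cells. Igfbp5 showed the opposite order of levels, with 46.6 and 60.5 CPM with TGF and 10.3 and 14.4 CPM with N in Control cells, and 7.02 and 6.15 CPM with TGF and 0.852 and 1.33 CPM with N in AmeloD cells. Its changes were 2.04 ± 0.22 in Control and 1.86 ± 0.22 in AmeloD cells.

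Of the 6878 genes, 0 (0%) passed limma's test of the difference between the responses, 263 had an unadjusted p under 0.05, and DESeq2 called 0. Apart from Prl8a7, the called genes differed by -0.47 to 0.26 (Control minus AmeloD), and the 95% half-widths of the differences over all 21, not adjusted for the number of genes, were 0.335 to 0.812. The 4 Control calls that did not pass in AmeloD cells were Prl8a7, Ncam1, Tmsb10-ps6 and Bhlhe40. Ncam1 changed by 1.38 ± 0.26 in Control and 1.16 ± 0.26 in AmeloD cells, Bhlhe40 by 1.31 ± 0.27 and 1.05 ± 0.27, and Tmsb10-ps6 by 0.88 ± 0.18 and 0.62 ± 0.18. Prl8a7 had 0 and 3 reads with TGF and 0 and 0 with N in AmeloD cells, so a proportional change could not be read there. Its difference was 1.95 ± 0.34 (limma adjusted p = 0.159), the lowest adjusted p of the test, with 0.999 the next. The test passed under 5 of the other limma settings that keep all libraries (adjusted p = 5.14e-04 to 0.0389) and not with pseudocount 0.5 (adjusted p = 0.999), a filter of 5 CPM (adjusted p = 0.177) or no filter (adjusted p = 0.932). On recovered reads, Prl8a7 had a difference of the opposite sign, -1.67 with edgeR and -0.30 with DESeq2, and neither called it. edgeR called 1 other gene, Gsta4, a glutathione transferase, with a difference of 3.54 (adjusted p = 0.0196).

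**Figure D4:**
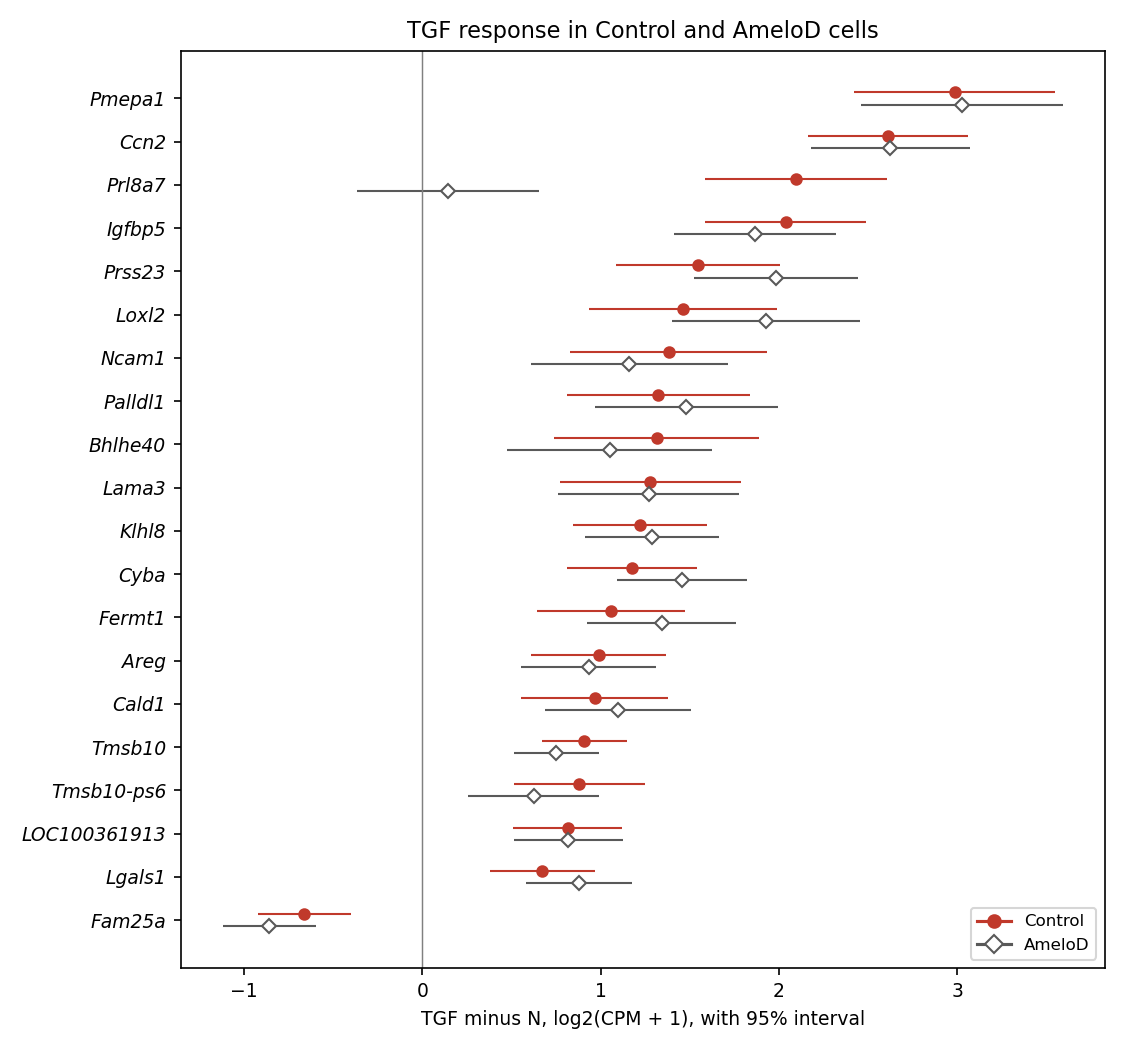
TGF minus N change on the log2(CPM + 1) scale with its 95% interval for 20 of the 21 genes called in Control cells, in Control cells (red circles) and in cells labelled AmeloD (open diamonds). The intervals overlap for every gene shown but Prl8a7, which is near 0 in AmeloD cells, where it had 3 reads in all.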

How the data were processed

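Messenger RNA 3' ends were sequenced in 8 libraries; the authors deposited 1 table of CPM per gene and library. Per the labels' protocols, reads were trimmed, aligned to mRatBN7.2 and counted; per the submitters' processing notes the tools included STAR 2.7.10a and featureCounts 2.0.1. The sources used here state neither the strand setting nor the use of molecular identifiers. Every deposited value (100%) was a whole number of reads within 0.01, so 0 reads allows up to 3 reads, or 0.169 to 0.203 CPM in a Control library. Such limits cover counting error only.

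Genes reaching 1 CPM in 2 or more Control libraries were tested on log2(CPM + 1) by limma 3.58.1 (R 4.3.3) with the eBayes trend, over all 8 libraries, two-sided. The terms were genotype, plasmid within genotype and TGF within genotype, which leaves 2 residual degrees of freedom; the Control estimate is the mean of the 2 Control pair differences, and the AmeloD libraries share only the spread. edgeR 4.0.16 and DESeq2 1.42.0 were run on the recovered reads as alternatives. The limma step was also run on simulated counts with the same dispersion for every gene and no plasmid effect. Such counts are simpler than the real ones, and no conclusion is drawn from them.

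Of 613 symbols in 24 gene lists, 601 were matched, 2 by another name, and 320 were tested. Lists are given as counts and medians without a test. The members and lists were chosen with earlier results of these data known. Named genes are the 12 largest rises and falls past the threshold at 5 CPM or more in the higher group, up to 4 called members per list or else its 2 highest, and 13 fixed genes. Other called genes (Tmsb10, LOC100361913, Palldl1, Tmsb10-ps6 and Lgals1), those nearest outside the threshold, marker genes and the calls of edgeR alone were named after their values were seen. Values of some genes are not reported here, and the plots of levels and of Control and AmeloD changes leave out 1 called gene for that reason.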

Additional observations from a re-analysis of the deposited data

How the results depend on the processing

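Control TGF calls numbered 21. Without the plasmid pairing (no replicate block) there were 21 too, with all 21 kept, and the plasmid differences of TGF and N libraries correlated at -0.000636 across genes, so the pairing rests on the label alone. Counts were 57 with Control libraries alone, 35 with TMM scaling, 39 with libraries at the same median, 31 with 1 plasmid term for both genotypes, 42 with edgeR and 1 (Ccn2) with no filter on low genes. Of the 21, edgeR kept 20 and DESeq2 18, with Bhlhe40 and Lgals1 lost and Ncam1 without an adjusted p. Pseudocounts of 0.5 and 5 kept 17 and 18. Leaving out 1 library gave 1 to 60 calls: 55 to 60 without an AmeloD library, 2 (Ccn2 and Pmepa1) without the Control pCMV6 N or pCMV6 TGF library, and 1 (Ccn2) without the Control pCMV6.ODAM N or pCMV6.ODAM TGF library. In these last cases 1 Control pair remains, its lone libraries are assumed to vary like the AmeloD ones, and fewer samples enter. With Control libraries alone or without an AmeloD library, limma's prior degrees of freedom were infinite, against 15.7 in the main fit. Each gene then took the spread of the trend and none of its own, so those counts also reflect a changed model of spread.

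The difference between Control and AmeloD responses had 0 calls, and 1 (Prl8a7) with no replicate block, with the shared plasmid term, with TMM scaling, at the same median and with pseudocount 5. edgeR made 1 call (Gsta4), and leaving out 1 library gave 0 to 11. The cause was not tested.

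Signs turned for genes that did not pass: Eno1 was -0.0026 with edgeR, and Lce3e was -0.0582 with TMM, -0.0492 at the same median, -0.0625 with edgeR and -0.0535 with DESeq2. With 1 library left out, log2 changes ran from -0.0368 to 0.7905 for Cnfn, -0.443 to 0.1003 for Ifitm3, -0.0514 to 0.4846 for Bmpr2, -0.3089 to 0.146 for Krt17, -0.5997 to 0.3403 for Fam83h, -0.0346 to 0.29 for Spp1, -0.0445 to 0.1698 for Eno1, -0.1203 to 0.3251 for Egfl7, -0.0449 to 0.1873 for Hspa5, -0.2897 to 0.2278 for Hmgb2 and -0.0428 to 0.0498 for Lce3e.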
